A study of Mus musculus with 6 samples.

Results

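The C-type lectin receptors with a Clec name are a family of mouse genes, many of which encode membrane proteins of myeloid cells. Its members were taken as all rows of the deposited count table whose gene name begins with Clec followed by a digit. There were 33 such genes among 55536 named genes, and all 33 matched a gene of the GENCODE M21 annotation (GRCm38) by identifier and by symbol. A gene was described singly when its level reached 1 CPM in at least 1 library (1 CPM is 1 count in 1000000 after scaling between libraries by TMM), which 21 of the 33 did. Of the other 12 genes, 4 (Clec2j, Clec3a, Clec4f and Clec18a) had no count in any library, and 8 had at most 19 counts, or 0.769 CPM. That highest value belonged to Clec4g, a receptor of liver sinusoidal endothelium, in bone marrow.

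RNA was sequenced from marrow cells of C57BL/6 mice aged 8 weeks and from macrophages grown out of marrow for 7 days. The 6 groups were macrophages grown with GM-CSF and given interleukin-6 (IL6) for 3 h, the same macrophages without IL6 (GM-BMDM), macrophages grown with M-CSF without IL6 (M-BMDM), M-BMDM given IL6 for 3 h or for 24 h, and bone marrow cells (BM). Each group had 1 library and no replicate, and the labels do not say whether animals were pooled or whether libraries came from separate cultures. All groups shared strain and age, and the labels name no genetic change in any group and no sort of the BM cells.

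C-type lectin receptors bind sugars, lipids or proteins on microbes and on dying cells through a folded lectin domain. Those of the activating kind signal through the kinase Syk and the adaptor CARD9, either from a tyrosine motif of their own or through the adaptor chains FcR gamma (Fcer1g) and DAP12 (Tyrobp). Those of the inhibitory kind carry a motif that recruits phosphatases such as SHP-1 (Ptpn6). A few genes with a Clec name are not receptors of this sort: Clec11a and Clec3b encode secreted proteins, and Clec16a encodes a regulator of endosomes and mitophagy.

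Libraries held between 18511790 and 24134365 counts in named genes, so 3 counts, taken as the floor of detection, corresponded to 0.121 to 0.165 CPM. The 6 macrophage markers (Adgre1, Csf1r, Mertk, Cd68, Fcgr1 and Itgam) summed to between 4103 and 6901 CPM in the 5 cultures and to 1065 CPM in BM. The 8 neutrophil markers summed to between 1.37 and 15.6 CPM in the cultures, against 28083 CPM in BM, and the erythroid, B cell, NK cell and basophil lists were each under 3 CPM in every culture. In such bulk samples, fewer cells of a type and less RNA per cell cannot be told apart.

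Most members lie on chromosome 6, where 25 of the 33 genes and 17 of the 21 measured ones were found. Of these, 22 form 2 groups, defined by gaps of at most 500 kb between neighbours. The first runs over 368 kb (122921848 to 123289870) and holds 9 genes in the order Clec4a1, Clec4a3, Clec4a4, Clec4b1, Clec4a2, Clec4b2, Clec4n, Clec4d and Clec4e. The second runs over 820 kb (128652416 to 129472779) and holds 13 genes, among them Clec2d, Clec2g, Clec2i, Clec12a, Clec1b, Clec9a, Clec1a and Clec7a.

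The 250 bases upstream of the transcription start are shown for 5 of the genes that differ between macrophage types or over 24 h of IL6, from the RefSeq table (GRCm38.p6). These 5 were picked after the values were seen. Sequences run 5′ to 3′ on the strand of the gene. Capitals mark matches, on either strand, to GAGGAA (the core bound by the myeloid factor PU.1), TGANTCA (AP-1), TTNCNNAA (C/EBP) or TTCNNNGAA (STAT). Clec7a, on the minus strand, is at chr6:129472780-129473029, Clec4e, on the minus strand, at chr6:123289872-123290121, Clec4d, on the plus strand, at chr6:123261857-123262106, Clec4a1, on the plus strand, at chr6:122921598-122921847, and Clec12a, on the plus strand, at chr6:129349994-129350243. For Clec12a this start lies inside the GENCODE gene (129342691 to 129365303).
Clec7a: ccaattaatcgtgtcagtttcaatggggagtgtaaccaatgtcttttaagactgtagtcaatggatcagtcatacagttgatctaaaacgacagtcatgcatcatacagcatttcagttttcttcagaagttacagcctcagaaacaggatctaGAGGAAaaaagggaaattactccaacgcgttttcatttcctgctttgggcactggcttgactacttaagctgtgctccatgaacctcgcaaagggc
Clec4e: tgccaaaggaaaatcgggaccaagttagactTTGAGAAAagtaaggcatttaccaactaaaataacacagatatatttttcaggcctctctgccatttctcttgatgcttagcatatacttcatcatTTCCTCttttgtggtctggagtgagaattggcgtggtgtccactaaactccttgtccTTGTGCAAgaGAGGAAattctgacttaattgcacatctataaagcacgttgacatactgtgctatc
Clec4d: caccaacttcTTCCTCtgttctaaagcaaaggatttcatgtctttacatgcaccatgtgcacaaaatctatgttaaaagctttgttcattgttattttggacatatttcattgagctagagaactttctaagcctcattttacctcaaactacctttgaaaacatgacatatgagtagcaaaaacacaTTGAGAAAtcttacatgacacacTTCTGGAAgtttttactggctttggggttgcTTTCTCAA
Clec4a1: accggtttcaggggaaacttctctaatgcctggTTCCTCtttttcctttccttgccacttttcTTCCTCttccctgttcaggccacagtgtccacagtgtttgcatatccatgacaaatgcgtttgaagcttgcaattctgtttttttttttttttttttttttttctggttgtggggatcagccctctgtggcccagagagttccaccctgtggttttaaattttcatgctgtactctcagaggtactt
Clec12a: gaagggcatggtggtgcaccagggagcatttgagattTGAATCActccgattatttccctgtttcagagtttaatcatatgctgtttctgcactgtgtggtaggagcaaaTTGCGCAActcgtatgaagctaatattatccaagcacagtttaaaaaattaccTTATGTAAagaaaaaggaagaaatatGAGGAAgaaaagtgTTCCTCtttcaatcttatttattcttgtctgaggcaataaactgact
All 5 windows held GAGGAA, with 2 matches each in Clec4e, Clec4a1 and Clec12a. In Clec4e the nearer one began 56 bases before the start, beside a C/EBP match that began 66 bases before it. Clec4d had 3 C/EBP matches, at 62, 39 and 8 bases, and Clec12a had 3 matches, of which 2 are the same 8 bases read on both strands. Only Clec12a of these 5 held TGANTCA, and none held TTCNNNGAA. Over all 32851 windows of this length in the table, 23.3% held GAGGAA, 36.8% TTNCNNAA, 6.75% TGANTCA and 7.02% TTCNNNGAA. Of 25 members with a window there, 13 held GAGGAA, 13 TTNCNNAA, 5 TGANTCA and 1 (Clec4a2) TTCNNNGAA. All of these are matches of letters only. Clec9a, Clec1b and Clec4a3, which also differed between macrophage types, had windows without GAGGAA, and Clec4n had no window. The 5 windows shown therefore do not stand for all the differing genes.

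The summed level of all Clec genes differed between the groups, and a few genes made up most of it. It came to 3300 CPM in GM-BMDM with IL6 for 3 h and 3335 CPM in GM-BMDM, against 2668 CPM in M-BMDM, 2684 CPM after 3 h and 1116 CPM after 24 h of IL6, and 894 CPM in BM. To set genes beside each other, levels were divided by the gene length in the deposited table. On this scale the first 2 genes in GM-BMDM were Clec4n (855 CPM per kb) and Clec7a (629), which held 71.3% of the summed Clec level. In M-BMDM the first 2 were Clec4d (490 CPM per kb) and Clec4e (435), with 60.9%. At 24 h of IL6 they were Clec4d (215) and Clec12a (160), with 57.0%, and in BM they were Clec5a (120) and Clec12a (111), with 40.5%. The 3 h libraries had the same first 2 genes as their cultures without IL6.

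**Figure D1:**
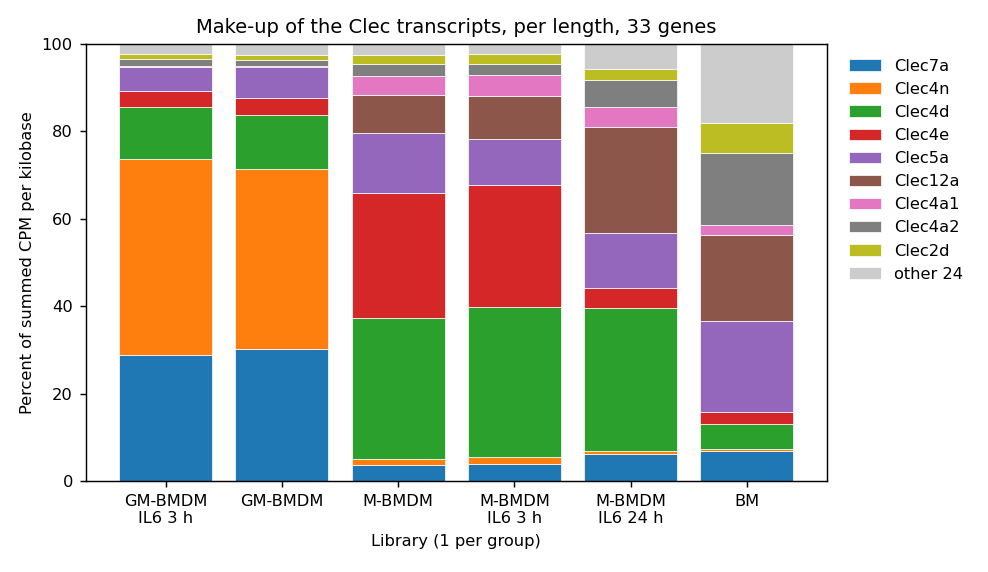
Share of each gene in the summed CPM per kilobase of the 33 Clec genes (vertical axis, percent) in the 6 libraries (horizontal axis), with 9 genes in colour and the other 24 in grey. Clec4n and Clec7a fill 71.3% of the bar of GM-BMDM, while Clec4d and Clec4e fill 60.9% of the bar of M-BMDM.

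The Clec4 group of chromosome 6 held 59.4% of the Clec level per length in GM-BMDM, 71.1% in M-BMDM, 52.1% in M-BMDM after 24 h of IL6 and 34.6% in BM. Clec4n was highest in the GM-CSF cultures, while Clec4d and Clec4e, next to it on one side, were both highest in M-BMDM without IL6 or at 3 h, and Clec4b2, on its other side, was highest in BM. Genes of this group are similar in sequence, and Clec4b2 had fractional counts in all 6 libraries, so its counts may include shared reads. Clec4a4, which encodes an inhibitory receptor of dendritic cells, had at most 7 counts in any library.

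**Figure D2:**
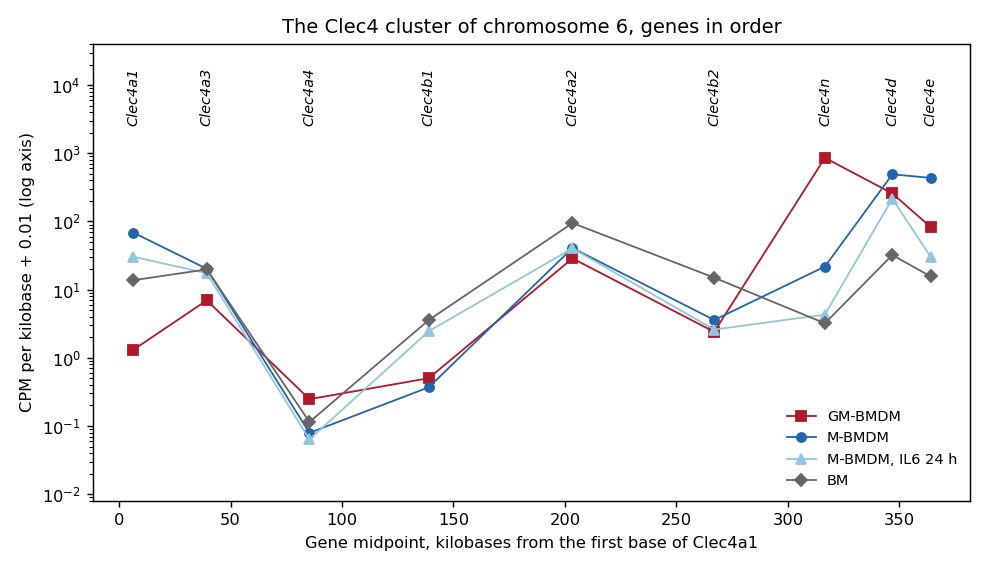
Level (CPM per kilobase plus 0.01, log axis) of the 9 genes of the Clec4 cluster, placed by their distance from the first base of Clec4a1 (kilobases), in 4 of the libraries. Clec4n is 855 in GM-BMDM and 21.8 in M-BMDM, while Clec4e, 2 genes on, is 82.8 in GM-BMDM and 435 in M-BMDM.

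Cultures grown with GM-CSF differed from those grown with M-CSF most in a few Clec genes. GM-BMDM had far more Clec4n, Clec7a, Clec1b and Clec9a, and far less Clec4a1, Clec12a and Clec4e. Per pair of libraries, a gene was counted when its scaled counts differed at least 2-fold, the exact 95% counting interval of the ratio excluded equal levels, and the higher library had at least 5 CPM. By this rule 4 of 21 Clec genes were higher in GM-BMDM than in M-BMDM, 4 were lower and 13 were neither, where 14.0% of all 14617 genes were counted, 7.76% as higher and 6.21% as lower. In the pair given IL6 for 3 h, 5 were higher and 5 lower, against 13.3% of all genes, 7.50% as higher and 5.84% as lower. The same 8 genes were counted in the same direction in both pairs. With 0.5 CPM added to each level, the median log2 ratio of the 21 genes was 0.09 in the pair with IL6 and -0.15 in that without it, against 0.00 over all genes in both. The value of -0.15 fell on Clec14a, with 1 count in GM-BMDM and 2 counts in M-BMDM, so it rests on the added 0.5 CPM. The ratios of library pairs have no replicate check, and their intervals cover counting error only.

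One contrast had 2 libraries a side, namely GM-CSF against M-CSF cultures over the pairs without IL6 and with IL6 for 3 h. It was tested with edgeR's quasi-likelihood test in a fit of all 6 libraries, with Benjamini-Hochberg adjustment over 14617 genes. Of the 21 Clec genes, 7 rose, 9 fell and 5 were not called in the GM-CSF cultures. Over all genes the test called 56.1%, with 28.7% rising and 27.4% falling, so that a call alone sets few genes apart here. Only 1 degree of freedom is left in the fit, namely how far the change at 3 h of IL6 departs between the types. To this the test adds a spread shared over all genes, which counts as a median of 50.7 prior degrees of freedom. Its p-values rest mostly on that shared spread. They measure no more than spread between these samples, which may be technical.

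**Figure D3:**
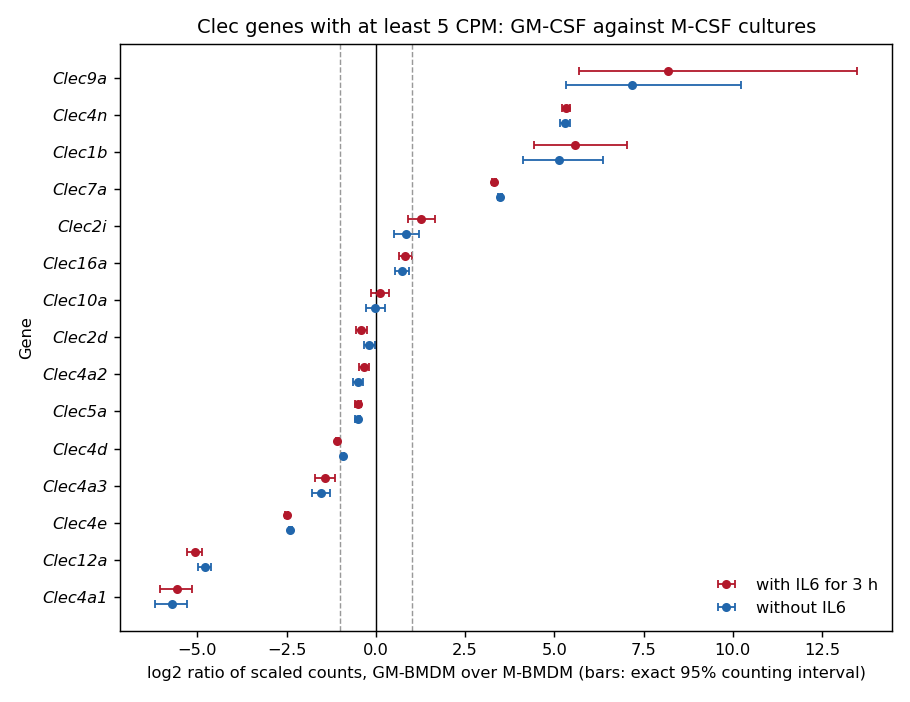
Log2 ratio of scaled counts, GM-BMDM over M-BMDM (horizontal axis), for the 15 Clec genes with at least 5 CPM, with exact 95% counting intervals as bars and the 2-fold limits as dashed lines. Red points are the pair with IL6 for 3 h and blue points the pair without it, which runs from -5.72 for Clec4a1 to 7.19 for Clec9a.

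Among the activating receptors, Clec7a, or dectin-1, is the receptor for beta-glucans of fungal walls and signals by itself to Syk. It had 1359 CPM in GM-BMDM with IL6 for 3 h and 1429 CPM in GM-BMDM, against 129 CPM in M-BMDM, 137 CPM after 3 h and 94.0 CPM after 24 h of IL6, and 88.8 CPM in BM. Both GM-CSF libraries stood apart from the other 4, which lay close together. The log2 ratio was 3.47 (95% interval 3.41 to 3.53) without IL6 and 3.31 (3.25 to 3.36) with it, and in the test Clec7a rose by 3.39 on the log2 scale (standard error 0.0935, adjusted p = 4.7e-36). The annotation lists Clec7a (chromosome 6, 129461591 to 129472779, minus strand) as a polymorphic pseudogene.

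Clec4n, or dectin-2, binds mannans of fungi and signals through FcR gamma. It had 1144 CPM in GM-BMDM with IL6 for 3 h and 1051 CPM in GM-BMDM, against 26.8 CPM in M-BMDM, 28.4 CPM after 3 h and 5.28 CPM after 24 h of IL6, and 3.93 CPM in BM. Both GM-CSF libraries were far above the other 4, of which M-BMDM at 24 h and BM were lowest. Clec4n was 39.3-fold higher in GM-BMDM relative to M-BMDM (log2 5.30, 5.17 to 5.43) and 40.3-fold higher in the pair with IL6. In the test it rose by 5.31 (standard error 0.102, adjusted p = 2.9e-43).

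Clec4e, or Mincle, which binds the cord factor of mycobacteria, and Clec4d, its neighbour and partner, also use FcR gamma. Clec4e had 187 CPM in GM-BMDM with IL6 for 3 h and 208 CPM in GM-BMDM, against 1096 CPM in M-BMDM, 1060 CPM after 3 h and 76.3 CPM after 24 h of IL6, and 39.3 CPM in BM. Clec4d had 326 CPM in GM-BMDM with IL6 for 3 h and 340 CPM in GM-BMDM, against 649 CPM in M-BMDM, 688 CPM after 3 h and 285 CPM after 24 h of IL6, and 42.6 CPM in BM. Both genes were highest in M-BMDM without IL6 or at 3 h, lower in the GM-CSF cultures, lower still in M-BMDM at 24 h and lowest in BM. Relative to M-BMDM, Clec4e was 5.26-fold lower in GM-BMDM (log2 -2.39, -2.44 to -2.35), and in the test it fell by 2.45 (adjusted p = 7.8e-31). Clec4d was 1.91-fold lower (log2 -0.93), just under the 2-fold limit, and 2.11-fold lower in the pair with IL6. In the test it fell by 1.00 (adjusted p = 1.8e-15).

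Clec5a, or MDL-1, pairs with DAP12 and binds dengue virus. It had 97.0 CPM in GM-BMDM with IL6 for 3 h and 125 CPM in GM-BMDM, against 177 CPM in M-BMDM, 137 CPM after 3 h and 70.2 CPM after 24 h of IL6, and 103 CPM in BM. Its levels lay between 70.2 and 177 CPM in all 6 libraries, and the ratio of GM-BMDM to M-BMDM stayed under 2-fold (log2 -0.51, -0.58 to -0.43). In the test it fell by 0.50 (standard error 0.082, adjusted p = 5.8e-07). Clec4b1 and Clec4b2, which encode the DCAR receptors, were low in all cultures and highest in BM. Clec4b2 had 2.03 CPM in GM-BMDM with IL6 for 3 h and 2.81 CPM in GM-BMDM, against 4.19 CPM in M-BMDM, 3.89 CPM after 3 h and 3.03 CPM after 24 h of IL6, and 17.6 CPM in BM. It fell by 0.75 in the test of macrophage type (adjusted p = 0.012), a call that the DESeq2 Wald test did not make (adjusted p = 0.28). Clec4b1 had 0.713 CPM in GM-BMDM with IL6 for 3 h and 0.368 CPM (8 counts) in GM-BMDM, against 0.269 CPM (5 counts) in M-BMDM, 0.641 CPM after 3 h and 1.83 CPM after 24 h of IL6, and 2.67 CPM in BM. It was not called, and its difference between the types was within counting error.

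Among the inhibitory receptors, Clec12a, or MICL, senses uric acid crystals of dead cells. It had 10.9 CPM in GM-BMDM with IL6 for 3 h and 11.9 CPM in GM-BMDM, against 329 CPM in M-BMDM, 365 CPM after 3 h and 399 CPM after 24 h of IL6, and 279 CPM in BM. The 2 GM-CSF libraries were low and the other 4 high, which is the reverse of Clec7a in the same chromosome group. Relative to M-BMDM, Clec12a was 27.6-fold lower in GM-BMDM (log2 -4.79, -4.97 to -4.61), and in the test it fell by 4.92 (standard error 0.105, adjusted p = 4.1e-41).

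The DCIR genes Clec4a1, Clec4a2 and Clec4a3 lie in the Clec4 group, and Clec4a2 encodes the inhibitory receptor DCIR itself. Clec4a1 had 2.36 CPM in GM-BMDM with IL6 for 3 h and 2.02 CPM in GM-BMDM, against 107 CPM in M-BMDM, 113 CPM after 3 h and 47.3 CPM after 24 h of IL6, and 21.4 CPM in BM. Relative to M-BMDM it was 52.7-fold lower in GM-BMDM (log2 -5.72, -6.19 to -5.29), and in the test it fell by 5.65 (adjusted p = 5.1e-39). Clec4a3 had 7.41 CPM in GM-BMDM with IL6 for 3 h and 8.10 CPM in GM-BMDM, against 23.5 CPM in M-BMDM, 19.8 CPM after 3 h and 20.2 CPM after 24 h of IL6, and 23.0 CPM in BM. It was 2.90-fold lower in GM-BMDM relative to M-BMDM (log2 -1.54, -1.80 to -1.28) and fell by 1.48 in the test (adjusted p = 2.7e-15), with the 4 libraries other than those of GM-CSF close together. Clec4a2 had 40.3 CPM in GM-BMDM with IL6 for 3 h and 36.2 CPM in GM-BMDM, against 51.3 CPM in M-BMDM, 50.7 CPM after 3 h and 50.8 CPM after 24 h of IL6, and 119 CPM in BM. It fell by 0.42 in the test (adjusted p = 0.00016), a change far smaller than that of Clec4a1, and was not called by the DESeq2 Wald test (adjusted p = 0.060). Reads of these similar genes could be split by the counting, although Clec4a1 and Clec4a3 had whole counts in every library.

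Clec9a, or DNGR-1, which binds the actin of dead cells and marks the dendritic cells that cross-present antigen, and Clec1b, or CLEC-2, the podoplanin receptor of platelets, had at most 24.0 CPM in any library but stood apart by macrophage type. Clec9a had 13.3 CPM in GM-BMDM with IL6 for 3 h and 15.7 CPM in GM-BMDM, against 0.108 CPM (2 counts) in M-BMDM, 1 count after 3 h and 4 counts after 24 h of IL6, and 6.36 CPM in BM. Its log2 ratio of GM-BMDM to M-BMDM was 7.19, with a wide interval from 5.33 to 10.24, and it rose in the test (adjusted p = 1.2e-22). Clec1b had 13.2 CPM in GM-BMDM with IL6 for 3 h and 15.05 CPM in GM-BMDM, against 0.430 CPM (8 counts) in M-BMDM, 0.275 CPM after 3 h and 0.332 CPM after 24 h of IL6, and 24.0 CPM in BM. Its log2 ratio was 5.13 (4.13 to 6.35), and it rose in the test by 5.32 (adjusted p = 9.3e-23).

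The 2 genes follow each other on the same strand (Clec1b at 129397297 to 129409335, Clec9a at 129408862 to 129424763), and the annotation gives them 184 bases of exon in common. Both had fractional counts in the same 2 libraries, GM-BMDM without IL6 and BM, so part of their counts may be shared. Of the platelet and megakaryocyte markers, the 6 genes summed to 107 CPM in GM-BMDM with IL6 for 3 h and 106 CPM in GM-BMDM, against 48.3 CPM in M-BMDM, 53.0 CPM after 3 h and 30.5 CPM after 24 h of IL6, and 574 CPM in BM. In the cultures most of that was Pf4, which macrophages also express, with 74.5 CPM in GM-BMDM and 38.4 CPM in M-BMDM. Of these 6 markers, 5 rose in the GM-CSF cultures in the test (Pf4, Ppbp, Itga2b, Gp9 and Gp1bb) and Tubb1 was not called. Over all genes, 28.7% rose in this test. Itga2b was 15.9 CPM in GM-BMDM and 0.538 CPM in M-BMDM, while Gp9 was 0.644 CPM in GM-BMDM and had no count in M-BMDM. Of 7 dendritic cell markers, 6 passed the filter. Against the same share of all genes, 5 of these rose in the GM-CSF cultures (Itgax, Ccr7, Batf3, Dpp4 and Zbtb46), while Flt3 was not called. The sum of all 7 markers, 1034 CPM in GM-BMDM and 28.7 CPM in M-BMDM, was mostly Itgax. Batf3 had 9.62 CPM in GM-BMDM and 0.591 CPM in M-BMDM, and Ccr7 had 20.2 CPM in GM-BMDM and 0.215 CPM in M-BMDM. Xcr1, which did not pass the filter, had 0.184 CPM in GM-BMDM and 0.806 CPM in M-BMDM. Of the 6 macrophage markers, Mertk and Itgam rose, Adgre1, Csf1r and Fcgr1 fell, and Cd68 was not called. Of the 8 neutrophil markers, 4 rose and 4 were not called. The part of platelets, megakaryocytes or dendritic cells in the differences of Clec1b and Clec9a was not tested.

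Clec1a, or MelLec, a receptor for fungal melanin, showed the same direction at a lower level, with 2.91 CPM in GM-BMDM with IL6 for 3 h and 2.21 CPM in GM-BMDM, against 0.215 CPM (4 counts) in M-BMDM, 0.137 CPM after 3 h and 0.955 CPM after 24 h of IL6, and 0.405 CPM in BM. It passed the filter through the GM-CSF libraries alone, so it had to be higher there, and its call in the test (log2 3.83, standard error 0.690, adjusted p = 3.8e-06) is only a description. It was too low for the ratio rule. Clec10a, or MGL1, is a receptor for galactose and its amino sugars. It had 14.2 CPM in GM-BMDM with IL6 for 3 h and 12.6 CPM in GM-BMDM, against 12.7 CPM in M-BMDM, 13.2 CPM after 3 h and 5.07 CPM after 24 h of IL6, and 15.9 CPM in BM. Its level lay between 12.6 and 15.9 CPM in all libraries but that of 24 h, and the difference between GM-BMDM and M-BMDM (log2 -0.01, -0.27 to 0.24) was within counting error. Clec10a had fractional counts in 3 libraries, so its counts may include shared reads, which the interval does not cover.

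The Clec2 genes encode the Clr proteins, several of which are ligands of NK cell receptors of the Klrb1 family. The product of Clec2d is the ligand of the inhibitory receptor encoded by Klrb1b. Clec2d had 30.5 CPM in GM-BMDM with IL6 for 3 h and 32.4 CPM in GM-BMDM. It had 36.9 CPM in M-BMDM, 40.5 CPM after 3 h and 20.9 CPM after 24 h of IL6, and 47.2 CPM in BM. It fell by 0.30 in the test (adjusted p = 0.0092), but not in the DESeq2 Wald test (adjusted p = 0.35). Clec2i had 9.71 CPM in GM-BMDM with IL6 for 3 h and 10.3 CPM in GM-BMDM, against 5.70 CPM in M-BMDM, 4.03 CPM after 3 h and 7.89 CPM after 24 h of IL6, and 28.0 CPM in BM. It rose by 1.05 in the test (adjusted p = 4.1e-08), while its ratio passed 2-fold in the pair with IL6 (log2 1.27, 0.89 to 1.66) and not in the pair without it (log2 0.85, 0.51 to 1.20). Clec2g was between 0.768 and 1.56 CPM in the cultures, against 6.76 CPM in BM, with fractional counts in all 6 libraries, and it was not called.

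Of the 3 measured genes that are not such receptors, Clec16a had the highest level per length in every culture. It had 36.1 CPM in GM-BMDM with IL6 for 3 h and 29.2 CPM in GM-BMDM, against 17.6 CPM in M-BMDM, 20.4 CPM after 3 h and 26.0 CPM after 24 h of IL6, and 19.6 CPM in BM. It rose by 0.78 in the test (adjusted p = 8.4e-09). Clec11a, which encodes a secreted growth factor, had at most 0.549 CPM in the cultures and 1.94 CPM in BM. Clec14a, an endothelial gene, had at most 2 counts in any culture and 36 counts in BM, and neither gene was called.

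**Figure D4:**
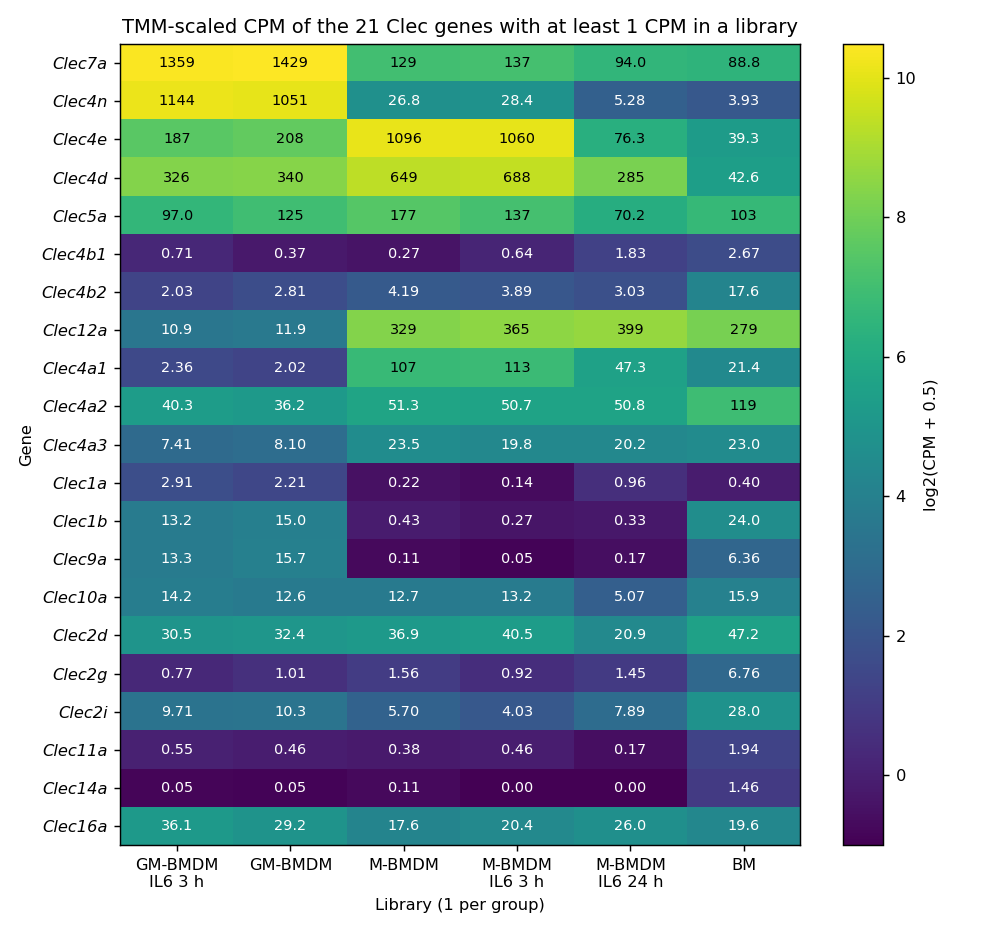
TMM-scaled CPM of the 21 Clec genes that reached 1 CPM in a library (rows) in the 6 libraries (columns), with the value printed in each field and colour on the scale of log2(CPM + 0.5). Clec7a and Clec4n have their highest fields in the GM-CSF libraries (1429 CPM and 1144 CPM) and Clec4e has its highest in M-BMDM (1096 CPM).

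Levels in the cultures were also set against those of the BM cells. Clec4n, Clec4d and Clec4e were higher than in BM in both cultures, while Clec2g, Clec2i, Clec4a2 and Clec4b2 were lower in both. In GM-BMDM, 5 Clec genes were higher and 7 lower than in BM, where 32.7% of all genes were counted, 15.7% as higher and 17.0% as lower. In M-BMDM, 4 were higher and 6 lower, where 33.2% of all genes were counted, 15.9% as higher and 17.3% as lower. Clec11a and Clec14a passed the filter through BM alone and so had to differ, but both were under 5 CPM and neither was counted. With 1 library per group, these counts are descriptions. Each of these comparisons rests on the same single BM library, and no test was made with it.

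Relative to BM, Clec4n was 268-fold higher in GM-BMDM (log2 8.06, 7.78 to 8.37) and 6.82-fold higher in M-BMDM. Clec4d was 8.00-fold higher in GM-BMDM and 15.2-fold higher in M-BMDM, and Clec4e was 5.31-fold higher in GM-BMDM and 27.9-fold higher in M-BMDM. Clec7a was 16.1-fold higher in GM-BMDM (log2 4.01, 3.95 to 4.07) and under the 2-fold limit in M-BMDM (log2 0.53, 0.45 to 0.62). Clec9a and Clec4a1 went opposite ways in the 2 cultures. Clec9a was 2.47-fold higher in GM-BMDM (log2 1.30, or 0.95 and under the limit with total-count scaling) and, with 2 counts, lower in M-BMDM (log2 -5.89, -8.94 to -4.01). Clec4a1 was 10.6-fold lower in GM-BMDM and 4.997-fold higher in M-BMDM. Clec12a was 23.4-fold lower in GM-BMDM, and in M-BMDM it lay at 1.18-fold (log2 0.24).

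Of the genes lower in both cultures, Clec2i was 2.73-fold lower in GM-BMDM and 4.91-fold lower in M-BMDM, and Clec4a2 was 3.30-fold lower in GM-BMDM and 2.32-fold lower in M-BMDM. Clec4a3 was lower in GM-BMDM (2.84-fold) and within counting error of BM in M-BMDM (log2 0.03, -0.16 to 0.21). Clec1b was 1.60-fold lower in GM-BMDM (log2 -0.67, or -1.03 and past the limit with total-count scaling) and 55.8-fold lower in M-BMDM. BM also held 574 CPM of the platelet markers and 28083 CPM of the neutrophil markers, and the part of those cells in its Clec levels was not tested.

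After 3 h of IL6 no Clec gene passed the ratio rule in either macrophage type. None of 21 was counted in GM-BMDM, where 0.116% of all genes were (0.0410% as higher and 0.0753% as lower), and none in M-BMDM, where 0.253% of all genes were (0.0684% as higher and 0.185% as lower). Among the 13 Clec genes with at least 5 CPM in M-BMDM, the log2 ratios ran from -0.50 (Clec2i) to 0.21 (Clec16a), and among 14 in GM-BMDM from -0.36 (Clec5a) to 0.30 (Clec16a). In edgeR's quasi-likelihood test over both types, Clec5a fell (log2 -0.37, standard error 0.0819, adjusted p = 0.016), and it was the 1 Clec gene called, against 0.527% of all genes, of which 0.0889% rose and 0.438% fell. It had 97.0 CPM at 3 h and 125 CPM without IL6 in GM-BMDM, and 137 CPM at 3 h and 177 CPM without IL6 in M-BMDM, so it was lower in both pairs. With the DESeq2 Wald test this call was lost (adjusted p = 1.00) at about the same change. Clec16a, at log2 0.26, was the other of 2 Clec genes with an unadjusted p under 0.05 in edgeR's test (adjusted p = 0.45).

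After 24 h of IL6 in M-BMDM, Clec4e, Clec4n, Clec5a, Clec10a, Clec4d and Clec4a1 were lower, while Clec7a, Clec12a, Clec4a2 and 12 other Clec genes were not past the rule. Of 21 Clec genes, 6 were lower than in M-BMDM without IL6 and none was higher by the ratio rule (1, Clec4b1, with a minimum of 1 CPM), where 14.4% of all genes were counted, 8.10% as higher and 6.30% as lower. The median log2 ratio of the Clec genes was -0.28, against 0.00 over all genes. The 24 h group was 1 library, and no test was made with it. No M-BMDM library is labelled as kept without IL6 for the same 24 h, so the part of time in culture in these ratios was not tested.

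Clec4e had the largest ratio of the 13 genes with at least 5 CPM, with 76.3 CPM at 24 h and 1096 CPM without IL6, which left 6.96% of its level (log2 -3.85, -3.91 to -3.78). Clec4n had 5.28 CPM at 24 h and 26.8 CPM without IL6 (log2 -2.34, -2.64 to -2.06). Clec4d, the neighbour of Clec4e, had 285 CPM at 24 h and 649 CPM without IL6, a log2 ratio of -1.19 (-1.23 to -1.15), so that 43.9% of its level was left. The 3 FcR gamma-coupled genes at the end of the Clec4 group were therefore all lower, by unequal amounts.

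Clec5a had 70.2 CPM at 24 h and 177 CPM without IL6 (log2 -1.33, -1.42 to -1.25). Against the 3 h library in place of that without IL6, its ratio was -0.96 and under the 2-fold limit, whereas the other 5 genes stayed past it. Clec10a had 5.07 CPM at 24 h and 12.7 CPM without IL6 (log2 -1.33), and Clec4a1 had 47.3 CPM at 24 h and 107 CPM without IL6 (log2 -1.18, -1.28 to -1.07).

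Of the receptors under the 2-fold limit, Clec12a had 399 CPM at 24 h and 329 CPM without IL6 (log2 0.28, 0.23 to 0.33), and Clec4a2 had 50.8 CPM at 24 h and 51.3 CPM without IL6 (log2 -0.02, -0.14 to 0.11). Clec7a, the beta-glucan receptor, had 94.0 CPM at 24 h and 129 CPM without IL6 (log2 -0.45, -0.54 to -0.37). Clec2d, also under the limit, had 20.9 CPM at 24 h and 36.9 CPM without IL6 (log2 -0.82, -0.99 to -0.65). Clec4b1 had 44 counts at 24 h and 5 without IL6 (log2 2.77, 1.44 to 4.46), and Clec1a had 23 counts at 24 h and 4 without IL6 (log2 2.15, 0.60 to 4.14), with both genes under 2 CPM and so outside the rule.

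**Figure D5:**
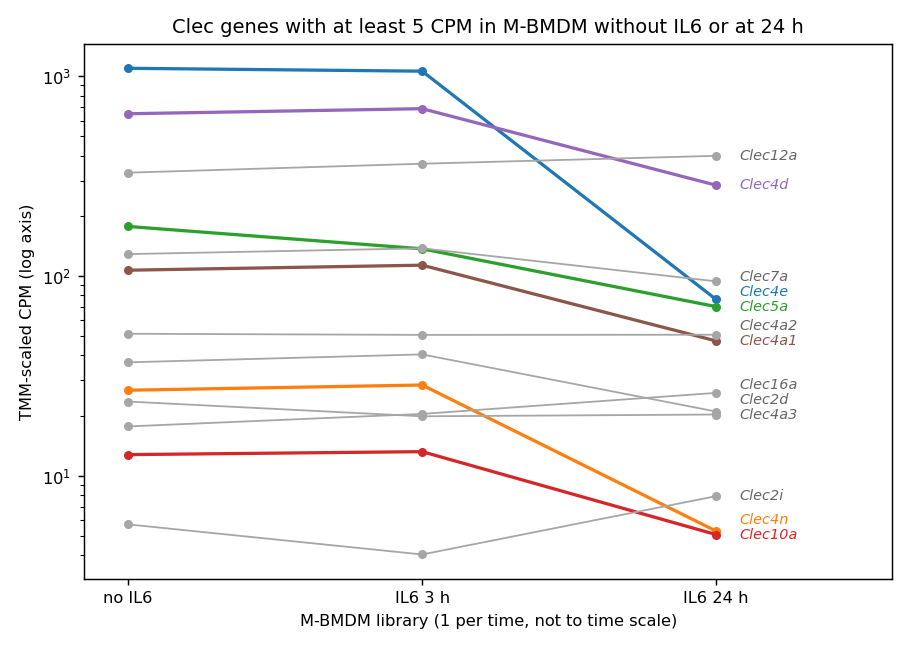
TMM-scaled CPM (log axis) of the 13 Clec genes with at least 5 CPM in M-BMDM without IL6 or after 24 h of it, in the libraries without IL6, at 3 h and at 24 h (horizontal axis, not to time scale). The 6 genes in colour are at least 2-fold lower at 24 h, Clec4e most with 76.3 CPM at 24 h against 1096 CPM without IL6, while Clec12a ends at 399 CPM.

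The adaptor genes of these receptors were expressed in all 6 libraries. Fcer1g, the chain that Clec4e, Clec4d and Clec4n need, had 503 CPM in GM-BMDM with IL6 for 3 h and 516 CPM in GM-BMDM, against 587 CPM in M-BMDM, 609 CPM after 3 h and 439 CPM after 24 h of IL6, and 190 CPM in BM. Tyrobp, the adaptor of Clec5a, had 903 CPM in GM-BMDM with IL6 for 3 h and 941 CPM in GM-BMDM, against 551 CPM in M-BMDM, 626 CPM after 3 h and 439 CPM after 24 h of IL6, and 321 CPM in BM. The 3 adaptor genes had no ratio past the rule between GM-BMDM and M-BMDM, although in the test Tyrobp and Hcst rose and Fcer1g fell, each by less than 1 on the log2 scale.

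Of 8 genes from Syk to the CARD9 complex, 4 rose and 2 fell in the GM-CSF cultures in the test, against 28.7% rising and 27.4% falling over all genes. Prkcd, the kinase that phosphorylates CARD9, rose by 0.96 (adjusted p = 1.1e-14), Malt1, the protease of the complex, rose by 0.74, and Vav3, an exchange factor, fell by 1.499 (adjusted p = 6.6e-20). Card9 rose by 0.24 (adjusted p = 0.028). At 24 h of IL6, 2 of these 8 genes were past the ratio rule and lower, where 6.30% of all genes were, Malt1 with 31.0 CPM at 24 h and 144 CPM without IL6, and Vav3 with 52.4 CPM at 24 h and 112 CPM without IL6. Of the 3 inhibitory phosphatases, Ptpn6 and Inpp5d fell in the GM-CSF cultures, by 0.56 and 1.00, and none was past the rule at 24 h.

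Pdpn, which encodes podoplanin, the ligand of the Clec1b product, had 157 CPM in GM-BMDM with IL6 for 3 h and 158 CPM in GM-BMDM, against 21.2 CPM in M-BMDM, 27.9 CPM after 3 h and 1.12 CPM after 24 h of IL6, and 0.648 CPM in BM. It rose in the GM-CSF cultures by 2.69 (adjusted p = 4.9e-30). At 24 h of IL6 it was 18.9-fold lower than in M-BMDM without IL6. The Klrb1 receptors of the Clec2 products were under 3 CPM in all cultures.

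Of 21 C-type lectins without a Clec name, 17 passed the filter. In the test, 11 of these rose and 1 fell in the GM-CSF cultures, against 28.7% rising and 27.4% falling over all genes. Asgr2 passed the filter through the GM-CSF libraries alone and Cd207 through the M-CSF libraries alone, so these 2 had to differ. Mrc1, the mannose receptor, had 363 CPM in GM-BMDM and 76.9 CPM in M-BMDM (rise of 2.22, adjusted p = 1.0e-29). Ly75, or DEC-205, had 81.7 CPM in GM-BMDM and 7.10 CPM in M-BMDM (rise of 3.76), and Asgr2 had 9.89 CPM in GM-BMDM and 0.108 CPM in M-BMDM. Cd207, or langerin, was the 1 that fell, with 0.0920 CPM (2 counts) in GM-BMDM and 7.42 CPM in M-BMDM. At 24 h of IL6, 3 of the 17 (Ly75, Cd69 and Olr1) were lower and none higher by the ratio rule, against 6.30% and 8.10% of all genes, with Olr1, the receptor for oxidized LDL, at 0.332 CPM (8 counts) at 24 h and 63.4 CPM without IL6.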

How the data were processed

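Total RNA of 6 mouse libraries, 1 per group, was analysed from a deposited table of estimated counts per gene. HISAT2, StringTie, DESeq2 and the GRCm38 build are named, per the submitters' processing notes, without order or version. Settings, annotation and use of strand were not given in the sources used here. Of the expected counts above 0 as deposited, 23.9% to 27.0% were not whole, and they were rounded. The 742 rows without a gene name (0.240% to 0.522% of counts) were left out. The gene length, another value in the deposited table (a length in bases), was used to set levels of genes side by side.

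TMM factors from edgeR 4.0.16 (R 4.3.3) scaled the libraries, and 14617 genes with at least 1 CPM in a library were kept. In 7 pairs of libraries, exact 95% intervals (Clopper-Pearson, conditional on the sum of both counts) were put on each ratio, and they cover counting error only. Contrasts that rest on the BM library or on the 24 h library got no test, since each stands alone. edgeR's quasi-likelihood test used an additive fit with a term each for macrophage type, BM and both times of IL6 (coefficient of variation 6.45%, Benjamini-Hochberg threshold 0.05), and the standard errors were derived from its F statistics. Medians of ratios used 0.5 CPM as a pseudocount. The steps were run on simulated data with a small set of changed genes, balanced up and down. Such a setting cannot test the scaling where many genes differ, as they do here. Named genes were all Clec genes that passed the filter plus lists of partner and cell type genes. The members and lists were chosen with earlier results of these data known, and the sequence motifs and the 5 sequences shown were chosen after the values were seen. Alternatives were DESeq2 size factors and total counts, other limits, no filter, the DESeq2 1.42.0 Wald test, a fit of 4 libraries, and the 3 h library as reference for 24 h.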

Additional observations from a re-analysis of the deposited data

How the results depend on the processing

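The total count of Clec genes past the ratio rule moved by less than 1.5 times in each comparison under each alternative run (other scalings, 1 CPM in place of 5 CPM, 1.5-fold in place of 2-fold, no filter, and the 3 h library as reference for 24 h). By direction, GM-BMDM against M-BMDM had 6 higher in place of 4 at 1.5-fold (with Clec16a and Clec2i), M-BMDM against BM had 9 lower in place of 6 at 1 CPM, and 24 h of IL6 had 1 higher in place of 0 at 1 CPM (Clec4b1). At 1.5-fold, 24 h of IL6 had 7 lower in place of 6 (with Clec2d). The count of Clec genes called for macrophage type was 16, or 13 with the DESeq2 Wald test, which did not call Clec2d (adjusted p = 0.35), Clec4a2 (0.060) and Clec4b2 (0.28). Over all genes this test called 8207 with edgeR and 4994 with DESeq2. For 3 h of IL6 the 1 Clec call became 0 with DESeq2, where 1 Clec gene had an unadjusted p under 0.05, against 2 with edgeR; over all genes 77 were called with edgeR, 3 with DESeq2 and 124 with DESeq2 size factors, and the cause was not tested. Scaling by total counts would shift all log2 ratios by -0.35 (GM-BMDM against BM), -0.19 (M-BMDM against BM), -0.16 (GM-BMDM against M-BMDM) and 0.14 (24 h of IL6), which adds Clec4d in GM-BMDM against M-BMDM, and in GM-BMDM against BM adds Clec1b and loses Clec9a. No direction of a counted or called Clec gene reversed under the alternatives run. No paired analysis was possible because the labels give no replicate numbers; the additive fit sets the types against each other within IL6 condition, which is a term of the design and no replicate block. With 1 library a group, no replicate could be left out. Genes under the floor of 3 counts in a library cannot be placed in order.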
